A study of Mus musculus with 2 samples.

Results

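The genes described here are 29 members of the pathways that build cholesterol and fatty acids, taken as a list of names. They were measured on 2 arrays of cells from healing mouse skin, and all 29 had a probe set naming them alone among the 19938 genes measured that way. For 3 members with 2 such probe sets (Acaca, Fdft1 and Idi1), the one with the higher mean of both arrays was used. The samples came from skin scar tissue of TCF reporter mice, 1 week post wounding, and carry the labels B-Gal + (positive here) or B-Gal - (negative here), with 1 array per group. B-Gal is read here as the beta-galactosidase product of the reporter, which is meant to mark cells with active TCF factors, the nuclear partners of beta-catenin. Both groups carry the same reporter genotype. The labels give no strain, age, sex or number of mice per array, and do not say how the cells were separated. The design text describes RNA taken from homogenised, microdissected wound tissue, and how this relates to separate cell groups is not stated.

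Cells make sterols from acetyl-CoA through mevalonate and squalene, and they make long-chain fatty acids from the same precursor by synthesis, elongation and desaturation. The SREBP transcription factors, encoded by Srebf1 and Srebf2, are held in the endoplasmic reticulum by the Insig proteins when sterols are plentiful and switch on most of these genes when sterols fall. In skin both pathways serve membranes, the lipid barrier of the epidermis and the secretion of sebaceous glands, and macrophages adjust them against the lipid they take up.

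With 1 array per group there is no replicate error and no test. Every statement below compares those arrays, and their number limits the precision. The deposited values are used as log2 expression values. Differences are given on the log2 scale as B-Gal positive minus B-Gal negative. Values of different genes come from different probes, so their levels are not ranked against each other. A gene counted as expressed when at least 1 array lay above a floor of 5.59, the 95th percentile of olfactory and vomeronasal receptor genes. All 29 members lay above it in both arrays, and 13784 genes in all were expressed. In such bulk RNA, fewer cells of a type and less RNA per cell cannot be told apart.

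Lipid synthesis genes were mostly lower in B-Gal positive cells, and the enzymes of fatty acid desaturation differed most. In B-Gal positive cells 21 of the 29 members had lower values than in B-Gal negative cells, and 8 had higher ones. Of all expressed genes, 45.5% had lower values. At least 2-fold lower were 8 of 29 (27.6%), against 12.7% of all expressed genes. At least 2-fold higher were 0 of 29, against 9.92% of all expressed genes. The median difference of the members was -0.48 on the log2 scale, and that of all expressed genes was 0.06. The members at least 2-fold lower were Scd1, Fads2, Scd2, Fasn, Hmgcs1, Cyp51, Elovl6 and Fdft1. The sterol and fatty acid branches were unlike in their counts: 3 of 16 sterol pathway enzymes (18.8%) and 5 of 9 fatty acid enzymes (55.6%) were at least 2-fold lower. Their medians were -0.24 and -1.06. Of the 16 sterol pathway enzymes, 10 had lower and 6 had higher values. Of the 9 fatty acid enzymes, 8 had lower values and 1 had a higher one. The call of Fdft1, 1 of the 3 sterol enzymes, rested on the probe set used. No test of the difference between the branches was possible.

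**Figure D1:**
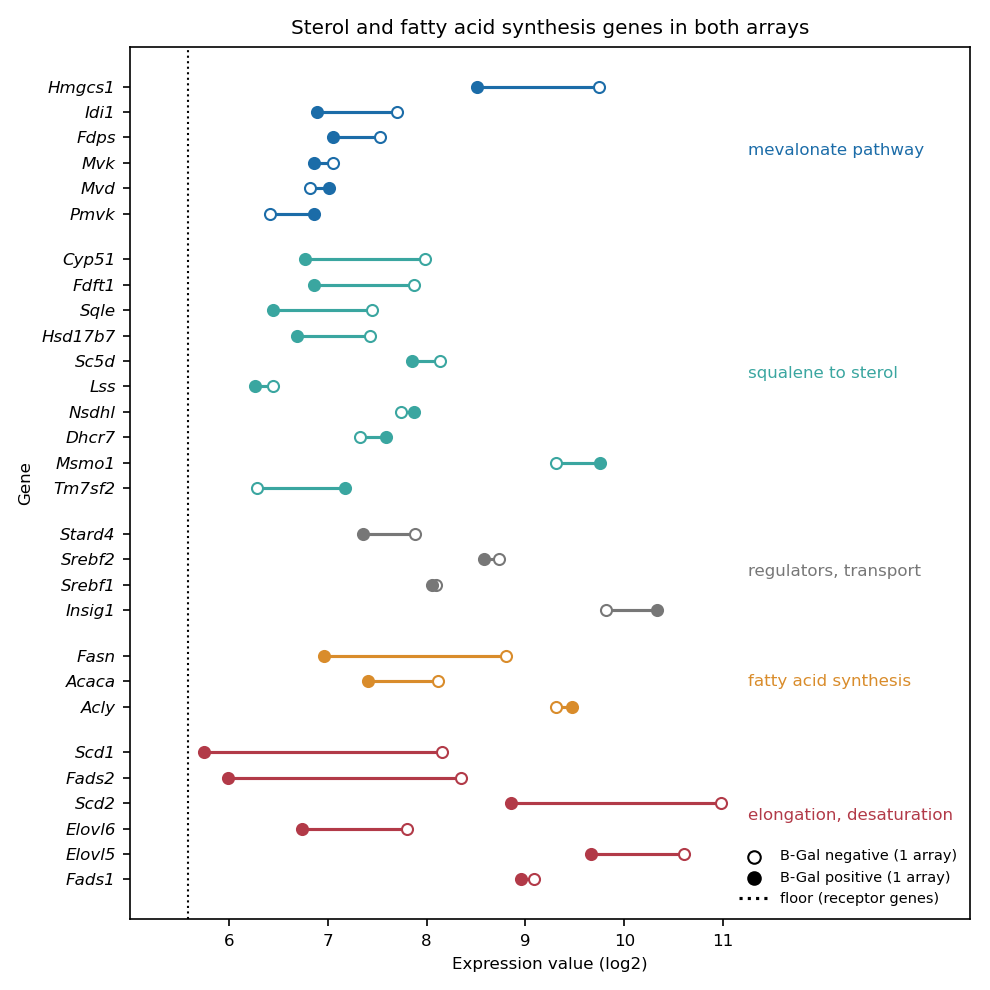
Log2 expression value (x axis) of each of the 29 genes (y axis, grouped by role) in the B-Gal negative array (open points) and the B-Gal positive array (filled points), with the floor of 5.59 dotted. Levels compare between points on 1 line only. The longest lines belong to Scd1, Fads2, Scd2 and Fasn, with the B-Gal positive array on the low side, and Scd1 ends at 5.75, close to the floor.

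Desaturases put double bonds into fatty acids, and those that differed belong to both known groups, the stearoyl-CoA desaturases and the front-end desaturases of polyunsaturated fatty acids. Scd1, which makes oleate and palmitoleate from saturated precursors, had log2 values of 8.16 in B-Gal negative and 5.75 in B-Gal positive cells, 5.30-fold lower. The B-Gal positive value lay 0.16 above the floor, so this array holds little Scd1 signal beyond that of receptor genes. Scd2, a second stearoyl-CoA desaturase with wide expression outside the liver, had values of 10.98 and 8.86, 4.36-fold lower and far above the floor in both arrays. Only 4.18% of expressed genes had a lower difference than Scd1, and 5.19% a lower one than Scd2.

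The front-end desaturases did not move as a pair. Fads2, which carries out the first desaturation of linoleic and alpha-linolenic acid, had log2 values of 8.35 in B-Gal negative and 5.99 in B-Gal positive cells, 5.14-fold lower. The B-Gal positive value of Fads2 lay only 0.40 above the floor. Fads1, which acts later in the same route, had values of 9.09 and 8.95, a difference of -0.14. Fads3, a related gene outside the 29 members, had values of 9.12 and 7.13, 3.98-fold lower. In the RefSeq gene table of GRCm38.p6 these genes stand next to each other on chromosome 19 in the order Fads3, Fads2, Fads1, with 0 other protein-coding genes between them. The gene at the end of this row thus had nearly equal values in both arrays while its neighbours were lower. The stearoyl-CoA desaturase genes also form an unbroken row on chromosome 19, in the order Scd3, Scd2, Scd4, Scd1. Scd3 (5.25 and 4.89) and Scd4 (4.08 and 4.11) did not exceed the floor in either array.

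Elongases add carbon pairs to fatty acids. Elovl6, which extends palmitate to stearate, had log2 values of 7.80 in B-Gal negative and 6.74 in B-Gal positive cells, 2.09-fold lower, a call that quantile normalization (both arrays set to 1 distribution; difference -0.999) or an offset on the linear scale (-0.88) ended. Elovl5, an elongase of polyunsaturated fatty acids, had values of 10.60 and 9.67, 1.91-fold lower. In B-Gal positive cells all 6 elongation and desaturation members were on the lower side, against 45.5% of all expressed genes. The median difference of the 6 was -1.59, from -2.41 for Scd1 to -0.14 for Fads1.

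The 3 members that supply and build the chain differed from each other. Fasn, the fatty acid synthase that assembles palmitate, had log2 values of 8.81 in B-Gal negative and 6.96 in B-Gal positive cells, 3.59-fold lower. Acaca, the acetyl-CoA carboxylase that makes malonyl-CoA for the synthase, had values of 8.11 and 7.40, 1.64-fold lower. Its other probe set gave 7.35 and 6.50, a difference of -0.86 beside -0.71. Acly, the ATP citrate lyase that makes cytosolic acetyl-CoA for both branches, had values of 9.31 and 9.47, a difference of 0.16. The step upstream of both branches was therefore close to equal in the arrays, and the synthase was not.

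**Figure D2:**
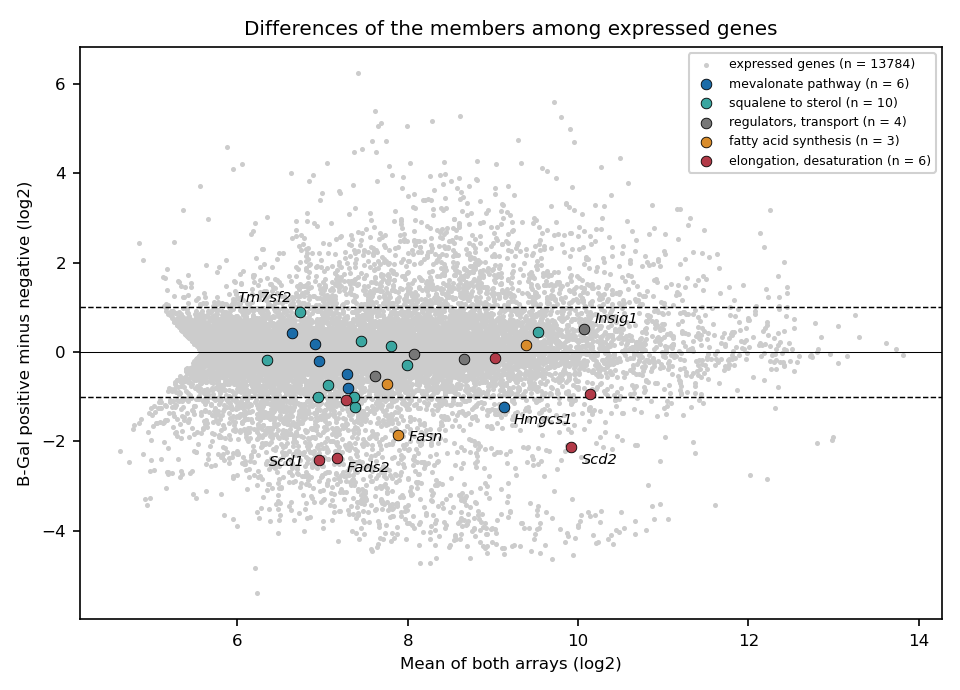
Difference between the arrays (y axis, B-Gal positive minus negative, log2) against the mean of both arrays (x axis, log2) for the 13784 expressed genes (grey) and the 29 members (coloured by role); dashed lines mark a 2-fold difference. The 8 members under the lower line span a wide range of mean values, and 0 members lie above the upper line.

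Among the 6 members of the mevalonate pathway, which turns acetyl-CoA into the isoprene units of sterols, the HMG-CoA synthase gene differed most. Hmgcs1, the cytosolic HMG-CoA synthase, had log2 values of 9.74 in B-Gal negative and 8.51 in B-Gal positive cells, 2.36-fold lower. The reductase step that follows was not analysed here. Mvk, mevalonate kinase, had values of 7.05 and 6.86 (difference -0.19). Pmvk, phosphomevalonate kinase, had values of 6.42 and 6.86 (0.44), and Mvd, the decarboxylase, had 6.82 and 7.01 (0.19). These middle steps thus lay on both sides of 0. Idi1, the isopentenyl diphosphate isomerase, had values of 7.70 and 6.89, 1.75-fold lower, and its other probe set gave 7.54 and 6.86 (-0.69 beside -0.81). Fdps, which makes farnesyl diphosphate, had values of 7.53 and 7.05, 1.39-fold lower. The median of the 6 was -0.34. At least 2-fold lower was 1 of 6 (16.7%), near the 12.7% of all expressed genes.

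Of the first committed sterol enzymes, Fdft1 and Sqle had lower values as well, while Lss differed little. Fdft1, squalene synthase, had log2 values of 7.87 in B-Gal negative and 6.86 in B-Gal positive cells, 2.02-fold lower. This call rested on the probe set used: the other had values of 7.50 and 6.75, a difference of -0.75. It also ended under centring of array medians (-0.99), quantile normalization (-0.95) and the offset (-0.85). Sqle, squalene epoxidase, had values of 7.45 and 6.45, 1.99-fold lower and just short of the threshold. Lss, lanosterol synthase, which closes the sterol rings, had 6.44 and 6.26 (-0.18).

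Among the members that act after lanosterol, only Cyp51 passed 2-fold. Cyp51, the lanosterol demethylase, had log2 values of 7.99 in B-Gal negative and 6.77 in B-Gal positive cells, 2.33-fold lower. Hsd17b7, a ketoreductase of the removal of methyl groups from the sterol ring, had values of 7.43 and 6.69, 1.67-fold lower. Sc5d, a sterol desaturase, had 8.13 and 7.85 (difference -0.28). Values were higher in B-Gal positive cells, by less than 2-fold, for Tm7sf2, a sterol reductase (6.29 and 7.17, 1.85-fold), and Msmo1, the methylsterol monooxygenase (9.31 and 9.75, 1.36-fold). Dhcr7, the last reductase on the way to cholesterol, had values of 7.33 and 7.58 (0.25), and Nsdhl, a sterol dehydrogenase, 7.74 and 7.87 (0.13). The receptor genes behind the floor had a median difference of 0.28 with an SD of 0.37 over genes. Enzymes that act on the same methyl groups, Msmo1, Nsdhl and Hsd17b7, thus had differences of 0.45, 0.13 and -0.74. Over the 10 members from squalene to cholesterol the median was -0.23, and 4 had higher values. At least 2-fold lower were 2 of 10 (20.0%), against 12.7% of all expressed genes. Fdft1, whose call rested on the probe set used, is 1 of the 2.

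The transcription factor genes of the pathway had nearly the same values in both arrays. Srebf1, whose product drives fatty acid genes in particular, had log2 values of 8.10 in B-Gal negative and 8.05 in B-Gal positive cells (difference -0.04). Srebf2, whose product drives sterol genes in particular, had 8.74 and 8.58 (-0.15). Insig1, which retains the SREBP precursors and is itself induced by them, had values of 9.82 and 10.33, 1.43-fold higher. Of expressed genes, 21.5% had a higher difference than Insig1 (0.51), and the receptor genes behind the floor had a median of 0.28 with an SD of 0.37. Hmgcs1, Cyp51 and Fasn, which SREBPs also induce, had lower values. SREBP activity was not tested. Stard4, a carrier of cholesterol between membranes, had 7.88 and 7.35, 1.44-fold lower.

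RefSeq promoter sequences of GRCm38.p6 were found for 22 of the 29 members, 27 promoters in all; those of Sqle, Fdps, Fdft1, Scd1, Scd2, Fads1 and Stard4 were not used here. Some genes have several promoters, and those of 1 gene can overlap. The 250 bases before each start were searched on both strands for 3 motifs. These were TCACNCCAC, 1 strict form of the sterol regulatory element, and the E-box CACGTG, which SREBPs can also bind. The last was CCAAT, the box of NF-Y, a common partner of SREBPs. Variants of the sterol element were not searched, so a promoter without this form can still hold another. These motifs share no letters in a match of the sequences shown, except that neighbouring CCAAT boxes can overlap each other. CCAAT was present in 19 of 27 member promoters (70.4%), in 33.8% of all 32851 promoters and in 34.0% of those of expressed genes. CACGTG was present in 5 of 27 (18.5%), against 6.02% and 8.01%. TCACNCCAC was present in 1 of 27 (3.70%), that of Hmgcs1, against 1.05% and 0.994%. Of the 5 members that were at least 2-fold lower and had a promoter here, 3 held CCAAT, 1 held TCACNCCAC and 0 held CACGTG. A match is a run of letters and was not tested as a binding site.

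The sequences below show the stretch before the start of the 4 members with the lowest differences and the 2 with the highest among those 22, so that the letters can be read beside the values. Fads2 lies at chr19:10101504-10101753 on the minus strand, Fasn at chr11:120824548-120824797 on the minus strand and Hmgcs1 at chr13:119690101-119690350 on the plus strand. Cyp51 lies at chr5:4104698-4104947 on the minus strand, Insig1 at chr5:28071162-28071411 on the plus strand and Tm7sf2 at chr19:6067851-6068100 on the minus strand. Each is written 5′ to 3′, with matches to the searched motifs in capitals.
Fads2: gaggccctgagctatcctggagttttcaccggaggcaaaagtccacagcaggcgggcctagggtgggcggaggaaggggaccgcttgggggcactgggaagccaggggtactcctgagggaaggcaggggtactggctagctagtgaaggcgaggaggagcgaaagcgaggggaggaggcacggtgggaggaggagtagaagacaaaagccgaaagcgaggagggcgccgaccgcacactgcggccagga
Fasn: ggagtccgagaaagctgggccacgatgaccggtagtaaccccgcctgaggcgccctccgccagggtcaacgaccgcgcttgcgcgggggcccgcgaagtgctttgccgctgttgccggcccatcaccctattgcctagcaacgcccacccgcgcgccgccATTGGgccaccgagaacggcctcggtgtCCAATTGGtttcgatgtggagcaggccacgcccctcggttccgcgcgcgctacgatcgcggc
Hmgcs1: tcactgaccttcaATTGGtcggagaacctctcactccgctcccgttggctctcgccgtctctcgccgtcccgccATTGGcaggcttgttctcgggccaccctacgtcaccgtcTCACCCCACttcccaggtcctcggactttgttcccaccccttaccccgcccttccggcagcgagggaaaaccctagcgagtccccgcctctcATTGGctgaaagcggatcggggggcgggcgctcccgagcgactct
Cyp51: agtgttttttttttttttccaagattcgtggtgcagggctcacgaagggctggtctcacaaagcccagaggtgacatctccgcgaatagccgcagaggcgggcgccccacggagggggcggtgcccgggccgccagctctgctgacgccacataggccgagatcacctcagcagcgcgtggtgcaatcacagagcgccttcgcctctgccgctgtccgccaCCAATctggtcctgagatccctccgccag
Insig1: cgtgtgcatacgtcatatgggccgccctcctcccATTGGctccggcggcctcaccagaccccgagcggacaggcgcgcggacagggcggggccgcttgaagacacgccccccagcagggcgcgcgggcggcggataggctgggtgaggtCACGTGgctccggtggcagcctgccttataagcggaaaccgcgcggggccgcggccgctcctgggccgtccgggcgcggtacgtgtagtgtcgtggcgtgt
Tm7sf2: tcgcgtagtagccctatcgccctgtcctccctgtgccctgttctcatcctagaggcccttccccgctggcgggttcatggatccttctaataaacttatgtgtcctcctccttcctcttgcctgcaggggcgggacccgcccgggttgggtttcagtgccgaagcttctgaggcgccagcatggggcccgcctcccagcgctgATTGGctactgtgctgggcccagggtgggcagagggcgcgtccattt
Hmgcs1 (difference -1.24) carries the element TCACCCCAC with its first base (as for all distances here) 137 bases before the start, and 3 CCAAT boxes read on the other strand. Fasn (-1.85) carries 3 CCAAT boxes, of which the last pair overlaps, and Cyp51 (-1.22) carries 1 at 29 bases before the start. Insig1 (0.51) carries the E-box at 101 bases and a CCAAT box at 216 bases. Tm7sf2 (0.89) carries a CCAAT box at 47 bases. Fads2 (-2.36) carries none of the searched motifs in this window. CCAAT thus occurred before members that were lower and before members that were higher in B-Gal positive cells.

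Other genes of the same pathways were taken from lists chosen with earlier results of these data known. Of 5 expressed genes of other sterol synthesis steps, all 5 were lower in the B-Gal positive array and 0 differed 2-fold (median -0.56). Of all expressed genes, 45.5% had lower values, 12.7% were at least 2-fold lower and 9.92% at least 2-fold higher. Cyb5r3, a reductase that feeds electrons to sterol and fatty acid desaturation, had log2 values of 10.41 and 9.46 (-0.95), and Erg28, a scaffold of sterol demethylation, 8.87 and 8.09 (-0.78). Lbr, a sterol reductase of the nuclear envelope, had 9.47 and 8.91 (-0.56). It shares its reaction with Tm7sf2, whose difference was 0.89.

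Of 9 expressed genes that process SREBPs or degrade sterol-regulated proteins, 0 differed 2-fold, against 12.7% of all expressed genes on the lower side and 9.92% on the higher side. Lower values were found for 5 and higher values for 4 of the 9, and the median was -0.19. Scap, the escort that carries SREBPs to the Golgi, had log2 values of 8.56 and 7.87 (-0.69). Mbtps1, the first protease that cuts them there, had 10.06 and 9.14 (-0.93). Insig2 had 8.74 and 8.54 (-0.20). Aup1, a factor in the degradation of sterol-regulated proteins, had 9.75 and 10.50 (0.74). Erlin1, a membrane protein of the same degradation route, had 7.84 and 8.41 (0.57).

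Of 18 expressed genes of other fatty acid synthesis steps, 4 passed 2-fold on the lower side (22.2%, against 12.7% of all expressed genes) and 1 on the higher side (5.56%, against 9.92%), around a median of -0.22. Me1, the cytosolic malic enzyme that supplies NADPH for fatty acid synthesis, had log2 values of 10.09 in B-Gal negative and 6.80 in B-Gal positive cells. It was 9.79-fold lower, a larger difference than that of any of the 29 members. Me1 has 2 probe sets, and only the one with the higher mean of both arrays was used. Beside Fads3, the lower ones were Hacd1 (7.96 and 6.27, 3.23-fold) and Elovl4. The B-Gal positive value of Elovl4, 4.67, lay under the floor, and its B-Gal negative value of 5.86 makes it at least 1.21-fold lower. Elovl4 thus counts among the 4 by its deposited values only, not against the floor. Hacd1 encodes a dehydratase of fatty acid elongation, and its family member Hacd4 was 3.98-fold higher (7.58 and 9.57). The dehydratases Hacd2 and Hacd3 had differences of -0.66 and -0.21. Members of this family thus lay on opposite sides. Hacd1 and Hacd2 also have 2 probe sets each, of which only the one with the higher mean was used.

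**Figure D3:**
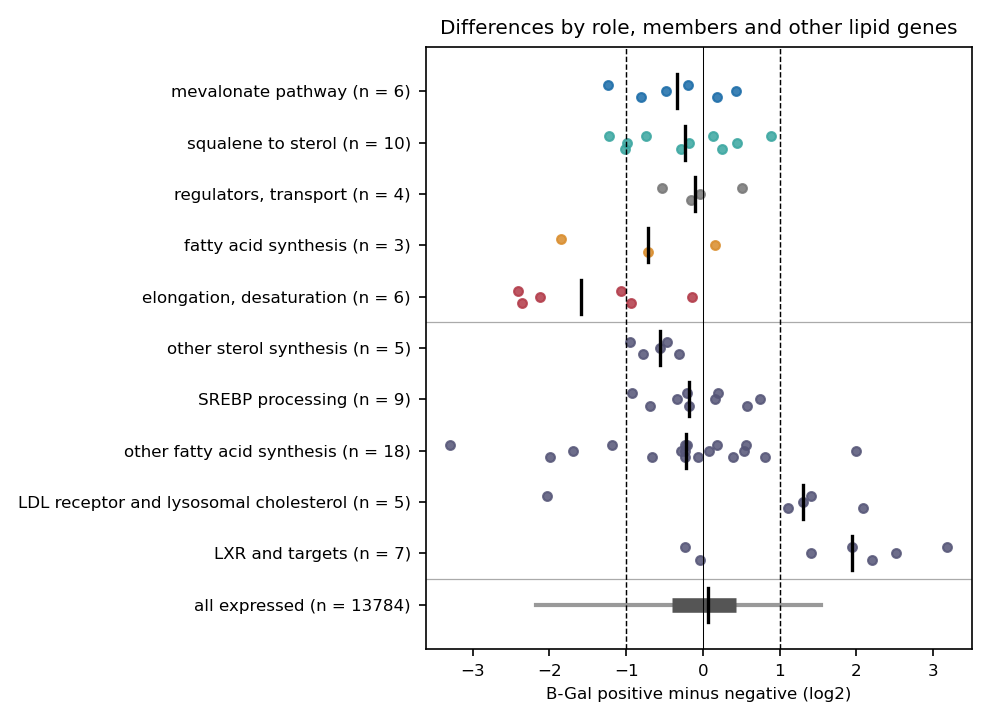
Difference between the arrays (x axis, B-Gal positive minus negative, log2) for expressed genes by role (y axis), members above the first grey line and other lipid genes below it; black ticks are medians and dashed lines mark a 2-fold difference. The bar for all expressed genes spans the 25th to 75th percentile and its thin line the 5th to 95th. Medians of the members run from -0.10 (regulators and transport) to -1.59 (elongation and desaturation), beside 0.06 for all expressed genes.

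Genes that bring cholesterol into the cytosol or export it lay on the other side. Of 5 expressed genes of the LDL receptor pathway and of lysosomal cholesterol, 4 were at least 2-fold higher and 1 was at least 2-fold lower, against 9.92% and 12.7% of all expressed genes. Lipa, the lysosomal acid lipase that frees cholesterol from its esters, had log2 values of 10.22 and 12.31, 4.26-fold higher. Npc1 and Npc2, which move the freed cholesterol out of lysosomes, were 2.47-fold and 2.16-fold higher. Mylip, a ubiquitin ligase induced by LXR that degrades the LDL receptor, was 2.65-fold higher. The lower one was Tmem97, a sterol-regulated membrane protein that binds the Npc1 protein (9.37 and 7.35, 4.08-fold). Tmem97 has 2 probe sets, of which only the one with the higher mean was used.

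LXR receptors respond to oxysterols and induce both cholesterol efflux genes and Srebf1. Of 7 expressed genes of this list, 5 were at least 2-fold higher and 0 at least 2-fold lower, against 9.92% and 12.7% of all expressed genes. The median of the 7 was 1.95. Mylip is in this list too and counts among the 5. Nr1h3, an LXR gene, had log2 values of 6.22 and 8.17, 3.87-fold higher. Abca1 and Abcg1, which export cholesterol, were 5.72-fold and 4.63-fold higher, and the apolipoprotein gene Apoe 9.10-fold higher. Lpcat3, a phospholipid acyltransferase also induced by LXR, had a difference of -0.23, close to that of Srebf1 (-0.04). Scd1, Scd2 and Fasn, which LXR can also induce, were lower in the same array. Whether the lower and the higher genes came from the same cells was not tested, nor was LXR activity.

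Marker genes of several cell types differed between the arrays too. Of all expressed genes, 9.92% were at least 2-fold higher and 12.7% at least 2-fold lower in B-Gal positive cells. All 16 macrophage markers passed 2-fold on the B-Gal positive side (summed level, as log2 of the summed linear values, 12.45 and 15.93). Past 2-fold on the lower side were 13 of 14 fibroblast markers (16.56 and 14.11), 9 of 10 endothelial markers (11.51 and 9.73), 6 of 7 pericyte markers (12.39 and 9.12) and all 7 expressed mast cell markers (11.44 and 8.29). The other fibroblast, endothelial and pericyte markers also had lower values, by less than 2-fold. The lower side also held 4 of 6 expressed neutrophil markers past 2-fold (10.73 and 9.53), while the other 2 had higher values. The same threshold was passed by 4 of 6 T and NK cell markers (9.98 and 8.31), 3 of 7 keratinocyte markers (9.92 and 9.19) and 7 of 9 proliferation markers (11.67 and 10.52), and the other expressed genes of these lists had lower values too. Their part in the differences of the lipid genes was not tested. Of 10 sebaceous gland markers, 9 did not exceed the floor, the wax ester synthase genes Awat1 and Awat2 among them, and the exception, Krt79, had values of 6.52 and 5.86 (summed level 8.43 and 8.33). Of 10 measured adipocyte markers, 7 were expressed and 0 differed 2-fold (summed level 9.61 and 9.70). Fabp4, a fatty acid binding protein gene, had values of 8.41 and 7.97, and Lipe, the hormone-sensitive lipase gene, 6.64 and 7.46, while Adipoq, the adiponectin gene, was not above the floor (4.46 and 4.47). Schwann cell markers had 2 of 4 above the floor, with 0 differing 2-fold (7.86 and 8.05).

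Over 7 settings, the deposited values and 6 alternatives to their scaling, floor or probe set summary, 6 of the 8 members stayed at least 2-fold lower: Scd1, Fads2, Scd2, Fasn, Hmgcs1 and Cyp51. None of the 29 differences changed sign in these settings. Raising values to the floor could not change any of them, since all members lay above it in both arrays. Probe set means could change only those of Acaca, Fdft1 and Idi1. Acly came closest to 0, with a lowest difference of 0.006 over the settings.

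**Figure D4:**
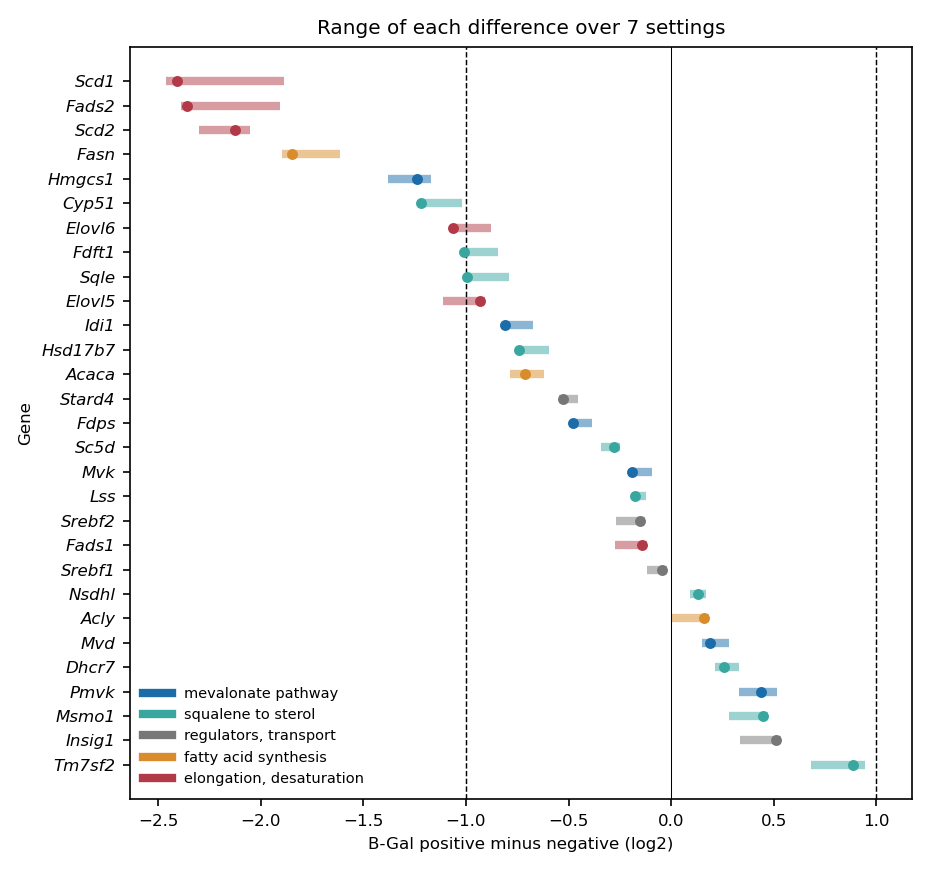
Difference between the arrays (x axis, B-Gal positive minus negative, log2) for each of the 29 genes (y axis): points are the deposited values and bars the range over 7 settings; dashed lines mark a 2-fold difference. The bars of Elovl6, Fdft1 and Elovl5 cross the 2-fold line and 0 bars cross 0.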

How the data were processed

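RNA of both groups was labelled with biotin, per the labels' protocols, and measured on Affymetrix Mouse Gene 1.0 ST chips, per the design text. The authors deposited 1 log2 value for each probe set on each array. Partek is named, with no version or role, per the submitters' processing notes. How values were summarised, background-corrected and normalised is not stated in the labels or the file. The log2 scale was inferred from their range (1.16 to 14.8), and folds depend on it. Array medians were 6.18 (negative) and 6.16 (positive), and no scaling was added.

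The platform annotation paired 21789 of 28853 probe sets with 1 gene; RefSeq (GRCm38.p6) matched 21698 by gene ID and changed 0 symbols. Of 1194 receptor genes behind the floor, 2.68% differed 2-fold, with a median difference of 0.28. Counts used deposited values, and a fold against a value under the floor is a lower bound. The rule named all members, pathway list genes past 2-fold or else up to 4 per list, and up to 4 per marker list; Scd3, Scd4, Insig2, Hacd2, Hacd3, Lpcat3, Awat1, Awat2 and Adipoq are named outside it, after their values were seen. The members and lists were chosen with earlier results of these data known. Alternatives were centring, quantile normalization, loess, an offset of 32, other filters, probe set means, other fold thresholds and list means. Counting was tested on simulated data. Python 3.11.15, pandas 2.3.3 and statsmodels 0.14.6 were used.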

Additional observations from a re-analysis of the deposited data

How the results depend on the processing

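The count of members at least 2-fold lower, 8 with the deposited values, ran from 6 to 9 over 10 alternatives in scaling, filter or probe set: 7 after centring, 6 after quantile normalization or the offset of 32, 9 after loess (span 0.4), where Elovl5 entered (-1.11), and 7 with probe set means. With the probe set of lower mean for the 3 members that have 2, an alternative chosen after seeing the data, it was 7. The other filters and raising values to the floor left the count at 8. Removing the filter or raising values could not change it, since all members lay above the floor in both arrays. The probe set alternatives could change only the 3 members with 2 probe sets. At a 1.5-fold threshold 13 members were lower and 1, Tm7sf2, was higher, beside 20.1% and 18.8% of expressed genes. At a 4-fold threshold 3 were lower, beside 5.72% of expressed genes. The median difference ran from -0.57 (the mean in its place) to -0.39 (quantile normalization). The offset reduced the differences of Scd1 and Fads2 to -1.89 and -1.91, since it compresses low values. No paired analysis was possible because each group has 1 array. Signal over background limits Scd1 and Fads2, whose B-Gal positive values lay 0.16 and 0.40 above the floor.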

Other observations

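Lists of neighbouring lipid pathways, chosen after the members' values were seen, are given beside all expressed genes, of which 9.92% were at least 2-fold higher and 12.7% at least 2-fold lower. Of 5 expressed genes of sterol ester and oxysterol handling, 2 were at least 2-fold higher and 2 lower. Cyp7b1, a hydroxylase that breaks down oxysterols, had log2 values of 9.42 in B-Gal negative and 5.38 in B-Gal positive cells and was at least 14.2-fold lower. Ch25h, which makes an oxysterol from cholesterol, had values of 6.89 and 5.86, 2.03-fold lower. Cyp27a1, another oxysterol-forming hydroxylase, was 6.48-fold higher (7.03 and 9.73), and Nceh1, a hydrolase of cholesterol esters, 7.17-fold higher (7.18 and 10.02).

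Fatty acid oxidation genes were close to equal: 0 of 14 expressed members differed 2-fold, 7 had higher and 7 lower values, and the median was 0.02. NADPH supply genes other than Me1 had a median of 0.38, and 1 of 7 (14.3%), Pgd of the pentose phosphate pathway, was 2.12-fold higher (9.85 and 10.94). Of 15 triglyceride and phospholipid synthesis genes, 2 were at least 2-fold higher and 2 lower (13.3% each), shares near those of all expressed genes. The lipin genes, phosphatases that form diacylglycerol, lay on both sides: Lpin1 was 3.35-fold and Lpin2 2.79-fold higher, while Lpin3 was 3.87-fold lower. Gpam, the mitochondrial acyltransferase that starts triglyceride synthesis, was 2.40-fold lower. Among 11 isoprenoid branch genes, which use mevalonate products outside sterol synthesis, 1 (9.09%, under the share of all expressed genes) was at least 2-fold lower, the farnesyltransferase subunit gene Fntb (2.02-fold), and the median was -0.18. These values have no replicate error.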
